A study of Mus musculus with 6 samples.

Results

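A set of 10 genes of the heat shock protein families was followed in the liver of mice with and without an activated human SRY transgene. The genes were taken by name, and every probe of the deposited liver table that carries a member's symbol was taken. The 10 genes are Hspa1a, Hspa1b, Hspa8, Hspa4, Hsph1, Hspb1, Dnaja1, Dnajb1, Hspd1 and Hspe1. The table held 12 probes for 9 of them among 25697 probes in all, and none for Hspa1b. Of the 12, 11 carried the symbol itself, and the probe of Hsph1 was listed under the older name Hsp105. A total of 7 probes of 6 genes were detected on enough arrays to be tested, beside 10734 tested probes overall. The set was labelled as cytosolic, which holds for 8 of its genes only, because Hspd1 and Hspe1 encode the chaperonin of the mitochondrial matrix.

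RNA from the liver of male FVB/N pups at postnatal day 6, whose strain the labels shorten to FVB, was hybridised to Illumina MouseRef-8 BeadChips, with 3 arrays from hSRY-ON and 3 from hSRY-OFF pups. In hSRY-ON pups, the Signalox-hSRY transgene, a single copy at the H11 locus, had been recombined at the start of embryonic life by Cre protein from a Ddx4-Cre mother, so that FLAG-tagged human SRY and EGFP were driven by the ubiquitous CAG promoter in place of DsRed2. Pups that had inherited Ddx4-Cre itself were not used for the hSRY-ON arrays. The methods give the name hSRY-OFF, which the control arrays carry, to Signalox-hSRY mice whose transgene was not recombined, so that DsRed2 is made and human SRY is not. Elsewhere the study also describes littermates without Signalox-hSRY as controls. The labels do not tell whether pups shared a litter, and p-values therefore measure the spread between these 6 samples alone.

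Heat shock proteins are molecular chaperones, which bind unfolded proteins and help them to fold, or hold them until they can be degraded. HSP70 proteins do this in cycles of ATP hydrolysis, J proteins deliver clients and start the hydrolysis, and HSP110 proteins and other exchange factors release the nucleotide. Small heat shock proteins hold unfolded clients without ATP, and the HSP60/HSP10 chaperonin encloses them in a chamber. Many of these genes are transcribed when heat shock factor 1 binds heat shock elements, inverted repeats of the unit GAA and its complement TTC, near their start sites.

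Promoter sequences are shown because these elements are what the members are best known to share. Windows of 300 bases, from 250 before to 50 after each start, were taken from RefSeq (GRCm38.p6) for 14 start sites of 9 members, and Hspa8 was not among the entries. They were searched for the pairs GAANNTTC and TTCNNGAA, each of which reads the same on both strands and which may overlap each other by a unit. A pair stood in 8 of the 14 windows, from 7 of the 9 genes, whereas 15.1% of all 32851 promoters held one. In all promoters GAANNTTC was found in 7.86% and TTCNNGAA in 8.52%. A row of 3 units, GAANNTTC going on with NNGAA or, on the other strand, TTCNNGAA going on with NNTTC, stood in windows of Hspd1, Hspe1 and Hsph1 and in 0.603% of all promoters. No pair was found in the windows of Dnajb1 and Hspa4, which says only that these letters are not in them. The 150 bases before the start are printed for Hspb1, the gene called higher in hSRY-ON liver, for Hspa1a, the classical heat-inducible gene, for Hspe1, which holds 3 overlapping pairs, and for the first start site of Dnajb1, which holds none. All are written 5′ to 3′ on the gene's strand, and capitals mark the pairs. The regions are chr5:135887769-135887918 (plus strand) for Hspb1, chr17:34972157-34972306 (minus strand) for Hspa1a, chr1:55087998-55088147 (plus strand) for Hspe1 and chr8:83608025-83608174 (plus strand) for Dnajb1.
Hspb1: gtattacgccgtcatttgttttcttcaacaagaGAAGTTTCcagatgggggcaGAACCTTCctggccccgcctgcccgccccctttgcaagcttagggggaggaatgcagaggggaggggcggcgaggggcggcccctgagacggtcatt
Hspa1a: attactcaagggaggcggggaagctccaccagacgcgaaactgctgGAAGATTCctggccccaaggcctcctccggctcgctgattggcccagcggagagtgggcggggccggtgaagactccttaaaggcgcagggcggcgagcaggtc
Hspe1: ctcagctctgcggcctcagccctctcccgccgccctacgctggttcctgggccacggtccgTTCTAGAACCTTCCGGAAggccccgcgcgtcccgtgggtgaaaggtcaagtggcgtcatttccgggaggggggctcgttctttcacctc
Dnajb1: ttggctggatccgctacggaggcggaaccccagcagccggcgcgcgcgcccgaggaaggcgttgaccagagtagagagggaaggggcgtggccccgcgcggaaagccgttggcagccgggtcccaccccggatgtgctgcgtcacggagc
The pairs of Hspb1 began 117 and 97 bases before the start, and that of Hspa1a 104 bases before it. Hspd1 and Hspe1 lie head to head, and the window of Hspe1 shared 285 of its 300 bases with one of the windows of Hspd1 on the opposite strand, so that both genes have the same 3 pairs between them. The windows of Hspa1a and Hspa1b differed at 4 of 300 bases (98.7% identical). These neighbouring copies encode nearly the same protein, and the single probe listed as Hspa1a may therefore read either gene.

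The 6 arrays detected 10318 to 10762 probes each, and their median deposited intensities were 147 to 165. Over all tested probes the median SD within a group was 0.14 in hSRY-OFF and 0.21 in hSRY-ON. It was 0.14 for hSRY-ON replicates 1 and 2 alone, without replicate 3, the array farthest from its group. An SD of 2 arrays tends to be lower than that of 3, so this value cannot be set beside the others. The median absolute deviation from the group mean was 0.118 and 0.141 for hSRY-ON replicates 1 and 2, and 0.0818 to 0.101 for the hSRY-OFF arrays. The number of arrays, 3 per group, limits the precision of every difference given here.

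In hSRY-ON liver, 1 of the 7 tested probes was called higher and none lower. It was the probe of Hspb1 (HSP27), a small heat shock protein that binds unfolded clients and actin. Hspa8, the constitutive HSP70, and both probes of Hspd1 had higher values on every hSRY-ON array than on any hSRY-OFF array but did not pass the threshold. With Hspb1, the groups thus did not overlap for 4 of the 7 probes, beside 50% of all tested probes. The probes of Hsph1, Dnajb1 and Hspe1 overlapped between the groups. Among all tested probes, 33.1% were called at an adjusted p under 0.05 (limma), 15.8% higher and 17.2% lower. The call of 1 in 7 probes is to be read against that share. The median difference of the 7 probes was 0.25 on the log2 scale, beside 0.02 over all tested probes, and 4 of the 7 differences were positive. With median scaling in place of quantile normalization the median of the 7 was 0.10 and that of all probes was -0.05.

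**Figure D1:**
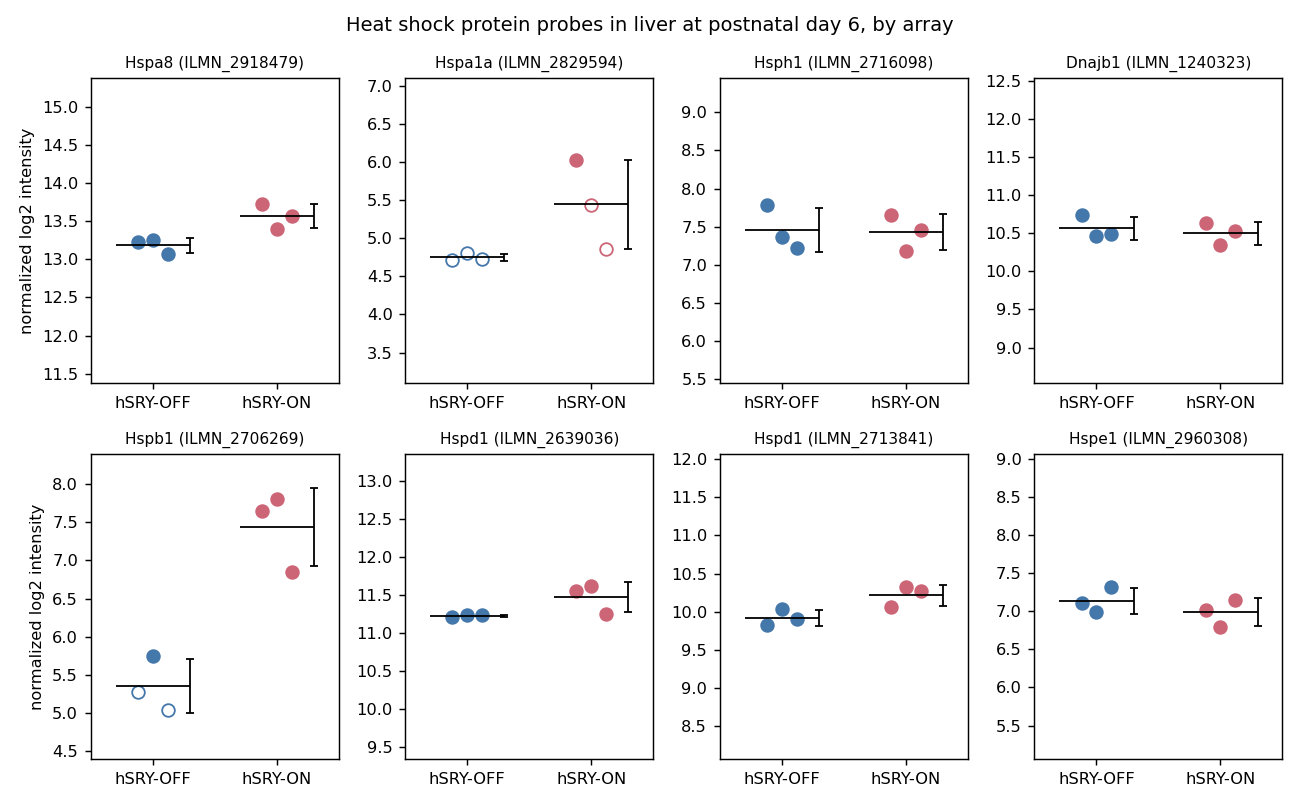
Normalized log2 intensity of each array for the 7 tested probes and for the probe of Hspa1a. Every panel spans the same log2 range, filled points were detected at a p under 0.01 and open points were not, lines are group means and bars are ± 1 SD (n = 3). Hspb1 separates the groups most clearly, and its hSRY-OFF values lie near the detection limit.

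Hspb1 was dim in the controls. Its deposited intensities were 169, 190 and 146 in the hSRY-OFF livers and 354, 340 and 222 in the hSRY-ON livers. After background correction and normalization, its log2 values were 5.27, 5.75 and 5.04 in hSRY-OFF and 7.65, 7.81 and 6.85 in hSRY-ON. The 3 hSRY-ON arrays all lay above the 3 controls. Groups without overlap, on either side, were found for 5363 of all tested probes. The difference was 2.08 ± 0.29 (SE) on the log2 scale, or 4.24-fold with a 95% interval of 2.66 to 6.74 (limma, adjusted p = 0.0021). Hspb1 was detected on all 3 hSRY-ON arrays but on only 1 hSRY-OFF array, replicate 2. It therefore entered the test through the hSRY-ON group, where it was high, and a probe that enters so leans towards a difference. With the undetected arrays set to their detection limit the difference was 1.70, and it was 0.87 when no background was subtracted. The call was kept in every alternative in which the probe was tested (limma, adjusted p 0.000222 to 0.0144), with differences between 0.86 and 2.39, the latter without hSRY-ON replicate 3. These alternatives reuse the same arrays and are not separate support.

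Over the 6 arrays Hspb1 was low in all controls, high on hSRY-ON replicates 1 and 2 and between on replicate 3. The 5 tested probes of other genes nearest to this course were taken, and how many probes follow it was not counted. Likeness was measured as the root mean square difference of the mean-centred log2 values over the 6 arrays, over which Hspb1 itself spanned 2.77. The closest 5 probes of other genes were those of Serpina3k (0.172), Slc7a2 (0.181), Nrg4 (0.219), Selenbp2 (0.221) and Pkig (0.222). Serpina3k encodes a serine protease inhibitor secreted by hepatocytes, Slc7a2 a transporter of cationic amino acids, Nrg4 a secreted ligand of the EGF family, Selenbp2 a selenium-binding protein and Pkig an inhibitor of protein kinase A. Being chosen for the course of Hspb1, they had to be higher in hSRY-ON, and their ratios, given as a description, lay between 3.40-fold for Pkig and 4.06-fold for Serpina3k.

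**Figure D2:**
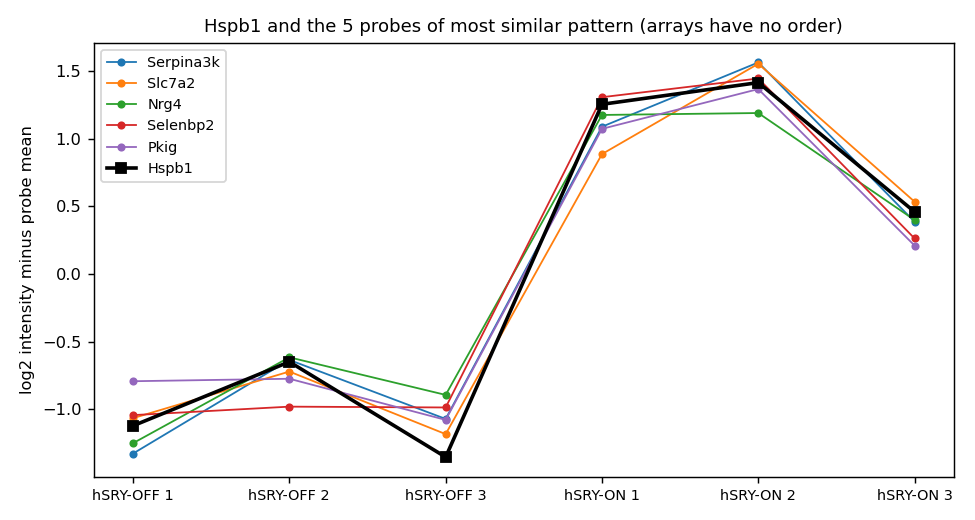
Log2 intensity minus the probe's mean over the 6 arrays, for Hspb1 (black squares) and the 5 probes with the most similar course. The lines only join the values of a probe, since replicates have no order, and in all 6 probes hSRY-ON replicate 3 is the lowest hSRY-ON value.

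Summed markers of some liver cell types differed in range between the groups, and those of others overlapped. In bulk tissue, fewer cells of a type cannot be told apart from less RNA per cell. All 7 stellate cell markers on the array were detected, and their summed normalized intensity was 7366 to 8187 on the hSRY-OFF arrays and 18516 to 20392 on the hSRY-ON arrays. A sum of linear intensities is weighted to the brightest probes. Of the 11 tested stellate probes, 5 were called higher and 1 lower, and their median log2 difference was only 0.24. Hepatocyte markers, all 7 of those on the array detected, summed to 104208 to 106579 in hSRY-OFF and 89803 to 95224 in hSRY-ON. Endothelial markers, with 6 of 7 detected and Kdr not, were 3185 to 3724 in hSRY-OFF and 3620 to 4487 in hSRY-ON. Erythroid markers, with 8 of 9 detected and Epb4.2 not, were 63864 to 82566 and 80499 to 92881, and both of these ranges overlapped. Summed macrophage markers, of which Cd5l was the only one of 10 not detected, were 13818 to 17174 in hSRY-OFF and 10971 to 13596 in hSRY-ON. Neutrophil markers, 7 of 7 detected, ranged from 46067 to 53196 in the controls and from 30887 to 95045 in hSRY-ON, and lymphocyte markers, 4 of 4 detected, were 1071 to 1102 against 295 to 598. Biliary sums were near background in both groups (200 to 247 and 189 to 238, with Krt19, Sox9 and Cftr not detected). Of the tested probes, 4 of 7 for hepatocytes and 4 of 4 for lymphocytes were called lower and none higher. For macrophages, 4 of 12 were lower and 1 higher. Called higher, with none lower, were 3 of 7 endothelial and 2 of 9 erythroid probes. No call was found among 10 neutrophil probes and 1 biliary probe. Over all tested probes, 15.8% were called higher and 17.2% lower. The skeletal muscle markers Ckm, Acta1, Myh4, Tnnt3 and Myl1 were not detected on any array. The remaining gene of that list, Des (desmin), which the stellate list also holds, was detected and called higher, with a difference of 0.77 (limma), and the list summed to 277 to 314 in hSRY-OFF and 331 to 451 in hSRY-ON. Hspb1 and some of the small heat shock proteins below are known to be abundant in contractile and mesenchymal cells, and the part of these shifts in their values was not tested.

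Among the HSP70 and HSP110 proteins, Hspa8 was detected on all 6 arrays. It encodes Hsc70, the HSP70 that cells make without stress and that also uncoats clathrin vesicles. Its log2 values were 13.23, 13.25 and 13.07 in hSRY-OFF and 13.72, 13.40 and 13.57 in hSRY-ON, so that all hSRY-ON livers lay above all controls. The difference was 0.38 ± 0.13 (SE), a 1.30-fold ratio with a 95% interval of 1.05 to 1.61, and did not pass the threshold after adjustment (limma, adjusted p = 0.0615). It passed in 6 of 17 alternatives, listed with the effects of processing, and was 0.19 with an adjusted p of 0.258 under median scaling.

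Hsph1, an HSP110 protein that serves HSP70 as exchange factor, gave log2 values of 7.79, 7.37 and 7.23 in hSRY-OFF and 7.65, 7.18 and 7.46 in hSRY-ON. The groups overlapped, and the difference of -0.03 had a 95% interval from -0.48 to 0.42 (limma, adjusted p = 0.917), so that this interval leaves room for a change in either direction.

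The heat-inducible HSP70 was close to the detection limit. The deposited intensities of the Hspa1a probe were 147, 153 and 137 in hSRY-OFF and 203, 167 and 140 in hSRY-ON. It was detected on 1 of the 6 arrays, hSRY-ON replicate 1, with a detection p of 0.00251, and missed the limit on hSRY-ON replicate 2 (0.0288) and replicate 3 (0.182) and on all controls (0.219 to 0.340). Because only 1 array detected it, it was not tested, and no ratio is given. Hspa4, another HSP110 protein, has 2 probes, and neither was detected on any array, with a lowest detection p of 0.0338.

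The J proteins showed no call. Dnajb1 (HSP40), the main partner of inducible HSP70, had log2 values of 10.74, 10.46 and 10.49 in hSRY-OFF and 10.63, 10.34 and 10.52 in hSRY-ON. The groups overlapped and the difference was -0.06, with a 95% interval from -0.39 to 0.26 (limma, adjusted p = 0.751). In fold terms the interval ran from 0.764 to 1.20. Neither of the 2 probes of Dnaja1, a farnesylated J protein of the cytosol, was detected on any array (lowest detection p 0.0489), and a difference in Dnaja1 was not detectable here.

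None of the probes of the mitochondrial pair was called. Hspd1 encodes HSP60, the subunit of the chamber, and Hspe1 encodes HSP10, its lid. The brighter probe of Hspd1 had log2 values of 11.21, 11.23 and 11.23 in hSRY-OFF and 11.55, 11.62 and 11.25 in hSRY-ON. All hSRY-ON values were above the controls, replicate 3 by very little. The difference was 0.25 with a 95% interval from -0.07 to 0.56 (limma, adjusted p = 0.194), and 0.36 without hSRY-ON replicate 3, where it passed the threshold (adjusted p = 0.0434). The other probe had values of 9.83, 10.03 and 9.90 against 10.06, 10.32 and 10.27, again without overlap, and a difference of 0.30 with an interval from -0.0027 to 0.59 (adjusted p = 0.113). For Hspe1, the values were 7.10, 6.98 and 7.32 in hSRY-OFF and 7.02, 6.79 and 7.15 in hSRY-ON. These groups overlapped, with a difference of -0.15 and an interval from -0.50 to 0.20 (adjusted p = 0.469).

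Since both genes start from the same stretch of DNA, their balance was compared within each array. The brighter Hspd1 probe minus the Hspe1 probe was 4.09 ± 0.17 (SD, n = 3) in hSRY-OFF and 4.48 ± 0.37 (SD, n = 3) in hSRY-ON. By array it was 4.10, 4.25 and 3.91 in hSRY-OFF and 4.53, 4.83 and 4.10 in hSRY-ON, so that the groups overlapped through hSRY-ON replicate 3. Levels of different probes cannot be compared directly, so these values are not ratios of the transcripts. The other Hspd1 probe was not compared with Hspe1. The shift was 0.40 (two-sided exact permutation test, p = 0.3). With 3 against 3 arrays this test cannot give a p below 0.1 and so could not have passed a threshold of 0.05. It was 1 of 3 planned pairs. Dnaja1 with Dnajb1 and Hspa1b with Hspa8 could not be compared, because a partner was not detected or had no probe.

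**Figure D3:**
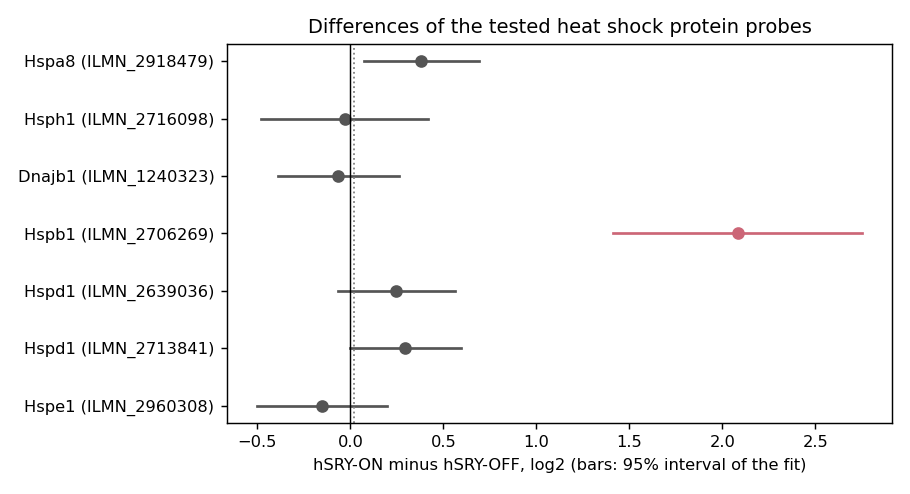
Difference between hSRY-ON and hSRY-OFF, in log2 units, of the 7 tested probes with the 95% interval of the limma fit. The dotted line is the median of all tested probes (0.02). In this fit the interval of Hspb1 (1.41 to 2.75) lies apart from the other 6. That of Hspa8 (0.07 to 0.69) also lies above 0, although its adjusted p did not pass. The Hspb1 controls lay close to background, so its distance from the other probes depends on the background step. Without background correction the differences were closer together, at 0.87 (SE 0.145) for Hspb1 and 0.38 (SE 0.104) for Hspa8.

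The genes that work with these chaperones were examined in 9 lists with 92 genes, of which 84 had a probe and 51 were tested, through 64 probes. A total of 18 probes were called higher in hSRY-ON, 3 lower and 43 did not pass. The called share was 32.8%, next to 33.1% for all tested probes, a share near the background. The split of 18 higher to 3 lower stood beside 1700 to 1851 over all tested probes. The median difference was 0.22, beside 0.02. Under median scaling the split was 11 to 6, beside 1296 to 2012 over all tested probes. It was 12 to 4, beside 1315 to 1607, when uncorrected intensities were scaled by a trimmed mean of M values (TMM). TMM changes both the scaling and the background step. Without hSRY-OFF replicate 1 only 8 of 63 probes were called (6 higher), beside 1818 of 10457 (854 higher) over all tested probes. Without hSRY-OFF replicate 2 only 9 of 64 were called (7 higher), beside 1964 of 10445 (951 higher). The counts by list that follow are to be read beside 15.8% of all tested probes called higher and 17.2% lower. Each list holds only 2 to 20 tested probes.

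The transcription factor that drives the heat shock genes was examined first. The probe of Hsf1 was higher on every hSRY-ON array, but its difference of 0.22 did not pass (limma, adjusted p = 0.204), and that of Hsf2 was not detected on any array. Hsbp1, a small protein that binds and restrains Hsf1, fell by 0.52 (adjusted p = 0.0159). This call was lost without hSRY-OFF replicate 1 or 2 (adjusted p 0.0541 to 0.0640). Hsbp1 and Hsf1 were the only tested members of this list of 6 genes.

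HSP90 takes over partly folded kinases and receptors from HSP70. Of the 20 tested probes for HSP90 and its co-chaperones, 5 rose and 1 fell, with a median of 0.08. Hsp90aa1, the inducible HSP90, was not detected by either of its 2 probes. Hsp90ab1, the constitutive form, rose by 0.48 (adjusted p = 0.0202) and 0.55 (0.0245) on 2 of its probes, with 0.23 (0.318) on the remaining one, and omitting any single control array, or hSRY-ON replicate 1, ended both calls (0.0540 to 0.0761). Both calls were also lost under median scaling, with adjusted p-values of 0.135 and 0.0688, and with TMM on uncorrected intensities (0.0929 and 0.0788). Cdc37l1, a relative of the kinase co-chaperone Cdc37, rose by 1.52 (adjusted p = 0.00183). Its call was kept in every alternative run, with differences of 1.27 to 1.75. The other tested probe of Cdc37l1 differed by 0.84 (0.0822), with groups that overlapped, and its remaining probes were not detected on any array. Fkbp4 (FKBP52), an immunophilin that attends steroid receptors in complex with HSP90, fell by 1.06 (adjusted p = 0.0052). The call of Fkbp4 was also kept in every alternative run, with differences of -1.22 to -0.88. Stip1 (HOP), which links HSP70 to HSP90, had a difference of -0.22 (adjusted p = 0.319). The remaining 2 calls were both probes of Unc45a, a myosin chaperone, at 0.56 each, named here after its values were seen, and each was lost without a single hSRY-OFF array (0.0559 and 0.0574).

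The other cytosolic HSP70 and HSP110 proteins had 3 tested probes, and 2 of them rose. Both belonged to Hspa2, an HSP70 best known from spermatogenic cells. Its first probe rose by 1.78 ± 0.37 (SE, limma, adjusted p = 0.0106), or 3.44-fold, and kept its call in every alternative run, with differences of 1.29 to 2.27. The second rose by 1.25 (adjusted p = 0.0296), a call that was lost without any single array other than hSRY-ON replicate 3 (0.0714 to 0.0938), with no filter on dim probes (0.0667) and with TMM on uncorrected intensities (0.0512). Hspa4l was not detected on any array.

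Among the exchange factors and co-chaperones of HSP70, 3 of 6 tested probes rose and none fell. Bag3, which joins HSP70 to small heat shock proteins in selective autophagy and is itself heat-inducible, rose by 0.65 ± 0.14 (SE, limma, adjusted p = 0.0125) and kept its call in every alternative run. Bag1, which couples HSP70 to the proteasome, rose by 0.53 (adjusted p = 0.0148), but not without hSRY-OFF replicate 2 (0.0609) or with median scaling (0.118). Bag5, named after its values were seen, rose by 0.50 (adjusted p = 0.0326) and lost its call without any of 4 single arrays, hSRY-OFF replicates 1 and 3 and hSRY-ON replicates 1 and 2 (0.0750 to 0.123), under median scaling (0.0710) and with TMM on uncorrected intensities (0.0657).

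Of the other J proteins, Dnajc5, the cysteine string protein of secretory vesicles, rose by 0.64 (limma, adjusted p = 0.0159) and lost the call without hSRY-OFF replicate 1 or 2 (0.0606 to 0.0657). Dnajb6, which keeps aggregation-prone proteins soluble, rose by 0.65 on one probe (adjusted p = 0.0186) while the other probe differed by -0.06 (0.797). Its call was lost without hSRY-OFF replicate 1 or 2 or hSRY-ON replicate 1 (0.0537 to 0.0781). The remaining 3 of 5 tested probes did not pass, and the 3 probes of Dnaja2 were not detected.

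The other small heat shock proteins had 3 tested probes, all with positive differences, beside Hspb1. Hspb6 (HSP20), known from smooth and cardiac muscle, rose by 0.54 (limma, adjusted p = 0.0145), but not without hSRY-OFF replicate 1 or 2 (0.0553 to 0.0613). Hspb8 (HSP22), the partner of Bag3, rose by 0.57 (adjusted p = 0.0372), and its call was lost without any single array except hSRY-ON replicate 1 (0.0665 to 0.106), with the replicate number as a block (0.0532), with no filter on dim probes (0.0603) and with array weights (0.0597). Cryab did not pass (difference 0.32, adjusted p = 0.332).

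In the mitochondrion, the chaperones next to Hspd1 and Hspe1 had 9 tested probes, of which 2 rose and none fell. Hspa9 (mortalin), the HSP70 that pulls proteins into the matrix, rose by 0.50 on one probe (limma, adjusted p = 0.0172), with 0.32 (0.108) on the other, and lost its call without hSRY-OFF replicate 1 or 3 (0.0592 to 0.0650), under median scaling (0.102) and with TMM on uncorrected intensities (0.0575). Dnaja3 (TID1), its J protein, rose by 0.52 (adjusted p = 0.0171), but did not pass when a control array or hSRY-ON replicate 1 was omitted (0.0513 to 0.0644), under median scaling (0.0889) or with TMM on uncorrected intensities (0.0647). Trap1, the mitochondrial HSP90, had a difference of -0.35 with an adjusted p of 0.0848.

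The cytosolic chaperonin CCT folds actin and tubulin, and prefoldin hands them over. Of their 10 tested probes 2 rose and none fell. Tcp1 (CCT1) rose by 0.92 ± 0.11 (SE, limma, adjusted p = 0.00128), or 1.89-fold, and kept its call in every alternative run, with differences of 0.80 to 0.97. Cct4 rose by 0.49 (adjusted p = 0.0227) and lost its call when any control array was omitted (0.0569 to 0.0789), under median scaling (0.102) and with the replicate number as a block (0.0555). Cct2 was detected on 1 array only and not tested.

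The counterparts in the endoplasmic reticulum were the only list in which most probes were lower, with a median of -0.20 over 6 tested probes. Sil1, the exchange factor of the reticulum's HSP70, fell by 0.73 ± 0.14 (SE, limma, adjusted p = 0.00853). It kept its call in every alternative run, with differences of -0.82 to -0.60. The other 5 probes did not pass, and the probe of Hspa5 (BiP), that HSP70 itself, was not detected on any array. An undetected probe does not show that its gene is silent. In the list of J proteins, for example, a probe of Dnajc2 was detected on all 6 arrays and its other probes on none.

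**Figure D4:**
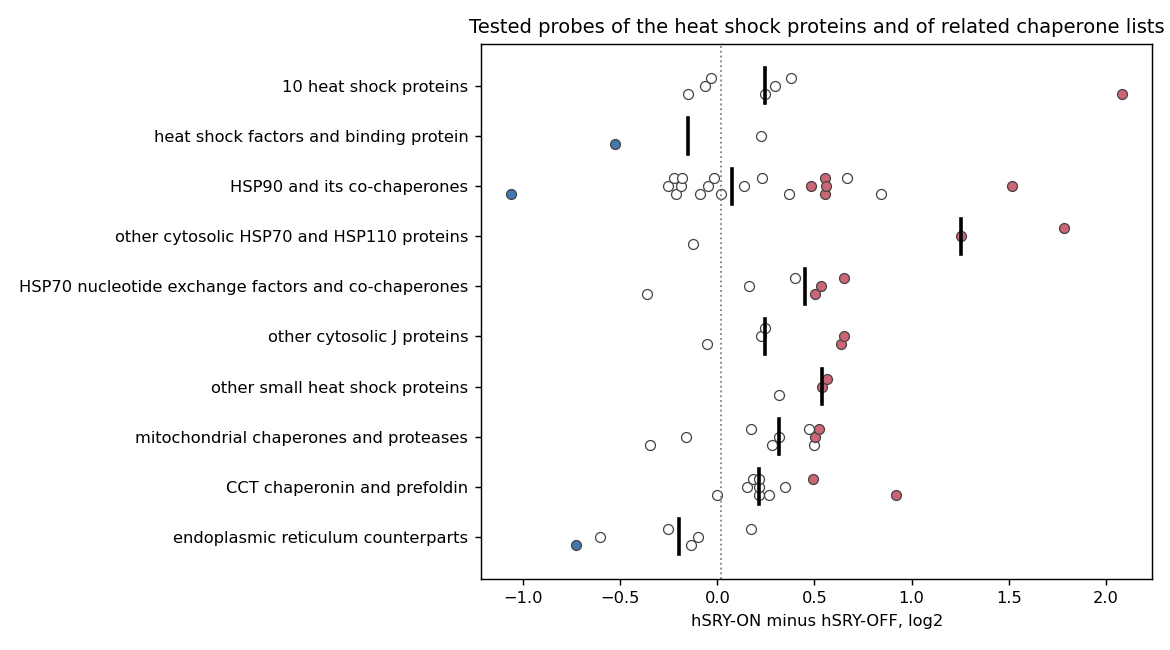
Difference between hSRY-ON and hSRY-OFF, in log2 units, of each tested probe, by list, with red for called higher, blue for called lower and white for not called. Thick bars are list medians and the dotted line is the median of all tested probes (0.02). Most lists have more positive than negative differences, and the endoplasmic reticulum list has 1 positive value of 6.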

How the data were processed

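The authors hybridised biotin-labelled cRNA and deposited, per probe and array, a mean bead intensity on a linear scale, neither background-subtracted nor normalized, and a detection p-value. The deposited detection p-value ranks a probe among the negative control beads of its array. Groups and replicate numbers came from the labels, and 0 columns were left without a sample. The methods name TCC, a package for counts, and the labels name limma. Because these values are intensities, count models were not used. With limma 3.58.1 under R 4.3.3, the background that the detection p-values imply was removed (nec, offset 16), arrays were quantile-normalized and log2 was taken. The offset shrinks the differences of dim probes. Tested were probes detected (p under 0.01) on 3 or more of the 6 arrays, with lmFit and eBayes, hSRY-ON minus hSRY-OFF, two-sided, with Benjamini-Hochberg adjustment over all 10734 tested probes and a threshold of 0.05. Each probe of a gene kept its own test.

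The members and the gene lists were chosen with earlier results of these data known. Of 18138 symbols in the table, 14307 were current in RefSeq (GRCm38.p6), 2927 matched through an older name and 904 were unmatched. Named were all 10 members, 13 related genes whatever their values, and in each list up to 2 genes with the smallest p past the threshold. The procedure was checked on simulated data with the same spread in both groups and changes only in probes detected on every array. That check does not cover a probe undetected on most arrays of a group, such as Hspb1. Alternatives covered background correction, offset, scaling, the filter on dim probes, the variance model, the threshold, the unit of counting, a replicate block and leaving out each array.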

Additional observations from a re-analysis of the deposited data

How the results depend on the processing

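The calls among the heat shock proteins depended on the processing through Hspa8. With 2 calls in place of 1, Hspa8 passed without background correction (limma, adjusted p = 0.0281), with normexp without control information (0.0388), with an offset of 50 (0.0449), with a trended robust variance (0.0232) and with array weights (0.0220). Leaving out single arrays gave 1 to 2 calls, with Hspa8 passing without hSRY-ON replicate 2 (0.0471) and Hspd1 without hSRY-ON replicate 3 (0.0434). With detection required on all 6 arrays there were 0 calls, since Hspb1 was then not tested. Without single arrays, the difference of Dnajb1 ranged from -0.13 to 0.022 (positive without hSRY-OFF replicate 1 or hSRY-ON replicate 2) and that of Hsph1 from -0.15 to 0.13 (0.13 and 0.09 without the same arrays). The cause was not tested. Of 118 alternative values of the 7 probes, 107 kept direction and side of the threshold. Using the names in the table alone, chosen after seeing the data, left 1 call of 6 tested probes, and counting 1 probe per gene also left 1. Over all tested probes, 3551 calls became 1669 at an adjusted p under 0.01 and 1818 to 3950 without single arrays (1818 without hSRY-OFF replicate 1, 1964 without replicate 2). The 21 calls among the related chaperones became 8 to 24 without single arrays. Run on these 21 probes after seeing the data, the alternatives kept 6 calls throughout, and 15 were lost without at least 1 array (adjusted p 0.0513 to 0.123). The difference between Hspd1 and Hspe1 stayed between 0.23 and 0.36 under other background corrections and scalings. No scaling moved the median of all probes by over 0.1.

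The labels do not tell whether same-numbered arrays share more than a number. Over all tested probes, the deviations of the 3 pairs from their group means correlated at 0.02, 0.10 and 0.05. Such weak correlations cannot decide whether a litter or batch was shared. With the replicate number as a block, 3213 probes were called in all, 1 among the heat shock proteins and 20 among the related chaperones, where the calls of Cct4 and Hspb8 were lost. Probes near background, such as those of Hspa1a, Hspa4 and Dnaja1, set the limit of what these arrays can show. Lack of detection by such a probe does not show that its gene was silent.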
